A study of Homo sapiens with 9 samples.

Results

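Occupancy of histone H2A over genes was compared between T47D-MTVL cells treated with progestin for 60 min and untreated cells at 0 min. The comparison covered autosomal genes at least 10 kb long with a mean of at least 0.1 RPKM (reads per kilobase of gene, scaled to sequencing depth) over the 3 H2A libraries. Of 20318 genes in the table, 19400 were autosomal, 13454 of these were long enough, and 13318 also passed the RPKM limit. T47D-MTVL cells are human luminal breast cancer cells, in which a reporter gene sits behind the MMTV promoter, a viral promoter that responds to progestin. The treated cells received R5020, a synthetic progestin, at 10 nM for 60 min, and the untreated cells received none. Both had spent 48 h in serum stripped of steroids with charcoal and 1 day without serum, and both were fixed with 1% formaldehyde. Each time is 1 library from 1 cell line, so every difference below is between libraries, has no replicate check and carries no p-value. An H2A library at 30 min is given beside them, and its change is set against the same 0 min library.

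H2A and H2B form the dimers that flank the central H3-H4 tetramer of the nucleosome, and these dimers are the first histones to leave when a nucleosome is opened. Progesterone receptor bound to DNA recruits remodelling complexes that can displace them, and the series title ties this remodelling to ATP made in the nucleus from ADP-ribose. A read count over a whole gene body averages all nucleosomes of the gene, so displacement at a single enhancer or start site weighs little in it. H2A occupancy is not expression, so the marker genes of cell types below describe genes and do not identify cells.

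Depth, recovered from the steps in the lowest RPKM values, was 133 M reads at 60 min and 141 M at 0 min, with 169 M at 30 min. After division by the number of annotated transcripts, because the deposited RPKM sums them, the median gene held 1880 reads at 60 min and 2022 at 0 min. The counting standard error of the log2 change, which covers the sampling of reads alone, had a median of 0.05 and a 95th percentile of 0.10. The shortest gene included was INO80E at 10002 bp (change -0.10), and the longest left out was SIX4 at 9998 bp (change -0.05). At the RPKM limit, FAM230A was kept with a mean of 0.102 and an unnamed gene of chromosome 17 was left out with 0.098.

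The change of H2A RPKM at 60 min was small and followed base composition. RPKM is scaled to the depth of each library, so a gain or loss of H2A shared by all genes would not show in it. Over all 13318 genes the log2 change had a median of -0.02, with a 5th percentile of -0.19 and a 95th of 0.10, and 57.0% of genes read lower at 60 min. A gene was counted as different when it lay past 0.25 on the log2 scale, a 1.19-fold difference. By that measure 16 genes (0.12%) read higher and 195 (1.46%) read lower. Past 0.5 there were 1 higher (0.00751%) and 2 lower (0.015%). Of the 195 lower genes, 181 had a GC content of at least 50%, a property shared by 2939 of all 13318. Of the 16 higher genes, 9 had a GC content under 40%, as had 4081 of all 13318. A mean RPKM under 0.5 was more frequent among them, in 10 of the 16, beside 889 of all 13318. RPKM sums the annotated transcripts, so this does not rank occupancy between genes. The 16 had a median counting standard error of 0.14, against 0.05 over all genes. The difference exceeded 2 counting standard errors in 182 of the 195 and in 9 of the 16.

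Sequences at the midpoints of genes from both ends of the range are given as examples of their composition. Among the named genes whose midpoint lay outside a UTR, and whose middle has no near-identical copy elsewhere in the genome, 2 of the lowest and the 3 highest are shown as 150 bases each. They are read 5′ to 3′ on the strand of the gene from GRCh37, with every G and C in capitals. A stretch was labelled coding exon where any of its bases overlapped one, so it can also hold intron. MYBBP1A and CYP4A22 read lower at 60 min, and CLEC7A, CRISP3 and PTCHD3 higher.
MYBBP1A (chr17:4447722-4447871, minus strand, coding exon): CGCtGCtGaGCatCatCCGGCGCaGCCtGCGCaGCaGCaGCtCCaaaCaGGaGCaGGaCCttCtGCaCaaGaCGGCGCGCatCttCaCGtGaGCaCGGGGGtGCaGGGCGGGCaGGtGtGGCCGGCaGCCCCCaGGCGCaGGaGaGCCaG
CYP4A22 (chr1:47608746-47608895, plus strand, intron): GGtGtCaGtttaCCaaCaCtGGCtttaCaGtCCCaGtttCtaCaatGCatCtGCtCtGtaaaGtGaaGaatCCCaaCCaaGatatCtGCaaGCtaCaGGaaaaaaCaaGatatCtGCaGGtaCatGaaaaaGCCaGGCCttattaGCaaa
CLEC7A (chr12:10276927-10277076, minus strand, intron): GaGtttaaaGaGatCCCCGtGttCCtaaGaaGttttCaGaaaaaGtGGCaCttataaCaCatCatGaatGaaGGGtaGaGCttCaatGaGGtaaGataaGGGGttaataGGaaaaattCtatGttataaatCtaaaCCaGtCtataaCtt
CRISP3 (chr6:49703537-49703686, minus strand, intron): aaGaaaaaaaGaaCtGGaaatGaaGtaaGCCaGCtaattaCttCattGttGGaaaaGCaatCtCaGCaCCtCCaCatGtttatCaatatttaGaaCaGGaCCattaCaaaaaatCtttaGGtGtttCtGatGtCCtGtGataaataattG
PTCHD3 (chr10:27695131-27695280, minus strand, intron): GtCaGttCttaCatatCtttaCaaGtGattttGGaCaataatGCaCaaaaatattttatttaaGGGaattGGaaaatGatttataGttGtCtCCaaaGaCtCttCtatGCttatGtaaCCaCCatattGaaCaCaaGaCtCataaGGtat
G and C made up 69.3% of the stretch in MYBBP1A and 41.3% in CYP4A22, the second of these below the median of 43.0% for whole genes. They made up 34% in CLEC7A, 32.7% in CRISP3 and 30% in PTCHD3. Over the whole genes the shares were 61.2% in MYBBP1A and 48.5% in CYP4A22, and 37.2% in CLEC7A, 34.5% in CRISP3 and 38.7% in PTCHD3.

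When genes were sorted into deciles of GC content, every step towards richer genes brought a lower median. Among the 1332 genes with the least GC, 30.4% to 37.0%, the median change was 0.07 and 5.56% read lower at 60 min. In the fifth decile (41.4% to 43.0%) the median was 0.00. Among the 1332 genes with the most GC, 54.2% to 67.3%, the median was -0.17, 98.9% read lower, and 133 of the 195 genes past -0.25 lay there. None of those 195 lay in the 5 GC-poorest deciles. At 30 min the same deciles had medians of 0.24, -0.07 and -0.32, so both ends lay closer to 0 at 60 min. Across genes the Spearman correlation of the 60 min change with GC content was -0.81. It lay between -0.84 and -0.62 on each of the 22 autosomes, and genes share libraries and neighbourhoods, so these values describe the table only. The source of the relation with GC was not tested.

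**Figure D1:**
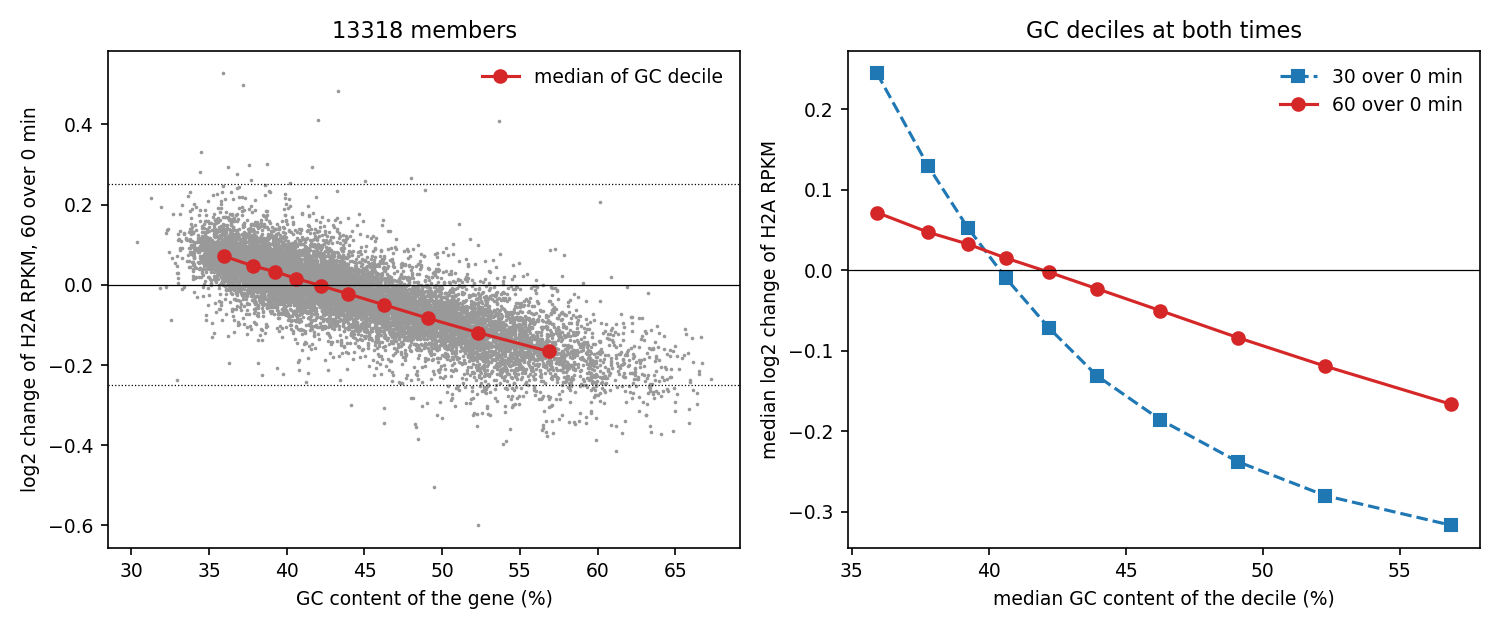
Left, log2 change of H2A RPKM at 60 over 0 min (vertical) against gene GC content in percent (horizontal), 1 grey point per gene, dotted lines at 0.25 either way, and red points for the medians of GC deciles. Right, decile medians at 60 min (red circles) and 30 min (blue squares) over 0 min. The 60 min medians run from 0.07 to -0.17 and the 30 min medians from 0.24 to -0.32.

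A smooth trend of the change on GC content (lowess) was taken off to see what was left. The standard deviation across genes was 0.06 off the trend and 0.09 as deposited, beside the median counting standard error of 0.05. Past 0.25 there were then 13 genes higher (0.0976%) and 14 lower (0.105%). Past 2 counting standard errors there were 354 higher and 562 lower, together 6.88% of all genes. As deposited, 1393 genes read higher and 2909 lower by that measure, 32.3% of all.

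Longer genes read slightly higher than shorter ones, alongside their lower GC content. Genes of 300 kb or more (603 genes, median GC 39.0%) had a median change of 0.03, and genes of 10 to 20 kb (3197 genes, median GC 48.0%) had -0.06. Among genes of like composition, between 42% and 48% GC, the medians were -0.04 for 119 genes of 300 kb or more and -0.03 for 826 genes of 10 to 20 kb. In that band the 5th to 95th percentile ran from -0.10 to 0.00 in the longest genes and from -0.16 to 0.09 in the shortest, with median counting standard errors of 0.01 and 0.07. Of the 195 genes past -0.25, 141 were shorter than 20 kb. The 5659 autosomal genes under 10 kb, left out here, had a median of -0.10 at a median GC of 52.8%. With the trend of the longer genes taken off, their median was 0.01. The 472 X-linked genes of matching length and level had a median of 0.00, both as deposited and with that trend taken off.

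Among single genes, the lowest readings that exceeded 2 counting standard errors belonged to GC-rich genes of about 10 to 25 kb. MYBBP1A, which encodes a nucleolar protein that binds the MYB transcription factor (chromosome 17, 4442239 to 4453356), had 4.07 RPKM at 60 min, against 5.44 RPKM at 0 min. Its log2 change was -0.41 with a counting standard error of 0.09, and its value off the trend was -0.22. TRMT1, a tRNA methyltransferase (chromosome 19, 13215716 to 13227463), had 5.96 RPKM at 60 min, against 7.82 RPKM at 0 min, a change of -0.39 with a standard error of 0.09. The actin-binding calponin gene CNN2 (chromosome 19) had 2.72 RPKM at 60 min, against 3.57 RPKM at 0 min, a change of -0.39. All 3 also read lower at 30 min against the same 0 min library, by -0.54, -0.50 and -0.43. Off the GC trend at 30 min they lay at -0.20, -0.21 and -0.10.

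CYP4A22, of a cytochrome P450 family that hydroxylates fatty acids (chromosome 1, 47603107 to 47614536), is one of a group of close paralogs, so its reads may be shared with them. It had 0.941 RPKM at 60 min, against 1.24 RPKM at 0 min, a change of -0.38 with a standard error of 0.12, and -0.31 off the trend. PIGQ, an enzyme of glycolipid anchor synthesis, had 6.73 RPKM at 60 min, against 8.73 RPKM at 0 min, and its change of -0.37 became -0.15 off the trend. NEURL4, SEMA4C, a semaphorin, MUC6, a gastric mucin, and JPH4, a junctophilin of neurons, each had -0.37. Off the trend these 4 lay between -0.21 and -0.15.

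The highest readings that exceeded 2 counting standard errors belonged mostly to GC-poor genes. CLEC7A, the receptor for fungal glucans also called dectin-1 (chromosome 12, 10271148 to 10282856), had 1.70 RPKM at 60 min, against 1.19 RPKM at 0 min. Its change was 0.50 with a standard error of 0.15, and 0.44 off the trend. CRISP3, a cysteine-rich secretory protein gene (chromosome 6, 49695097 to 49712127), had 2.33 RPKM at 60 min, against 1.84 RPKM at 0 min, a change of 0.33 with a standard error of 0.06. Both read higher at 30 min too, against the same 0 min library, by 0.57 and 0.38. Off the GC trend at 30 min they lay at 0.40 and 0.06. PTCHD3, a gene with a patched domain, had 0.273 RPKM at 60 min, against 0.212 RPKM at 0 min, a change of 0.30. SMNDC1, a splicing factor gene, had 1.46 RPKM at 60 min, against 1.18 RPKM at 0 min, also a change of 0.30. PLN, which encodes the calcium pump inhibitor phospholamban, had 0.28, MTRF1L, a mitochondrial release factor gene, 0.26 and ARPC5, of the actin-nucleating Arp2/3 complex, 0.25.

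The zinc finger gene ZNF443 (chromosome 19) differed at 60 min and not at 30 min. It had 0.324 RPKM at 60 min, against 0.255 RPKM at 0 min, a change of 0.29 with a standard error of 0.14, while the 30 min change was -0.01. TCP10L3, a T-complex gene on chromosome 6, had 0.27 at 60 min but read lower at 30 min, at -0.15. The middle of this gene has a near-identical copy. CBWD2, at 0.29, has such a copy as well. RABL2B, a small GTPase gene at the end of chromosome 22, had the lowest change of the genes past 2 counting standard errors at -0.50 (standard error 0.17) and has a copy on chromosome 2 that differs by 1.3% of bases. Reads of these genes may be shared with their copies, and how such reads were treated is not given in the sources used here.

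**Figure D2:**
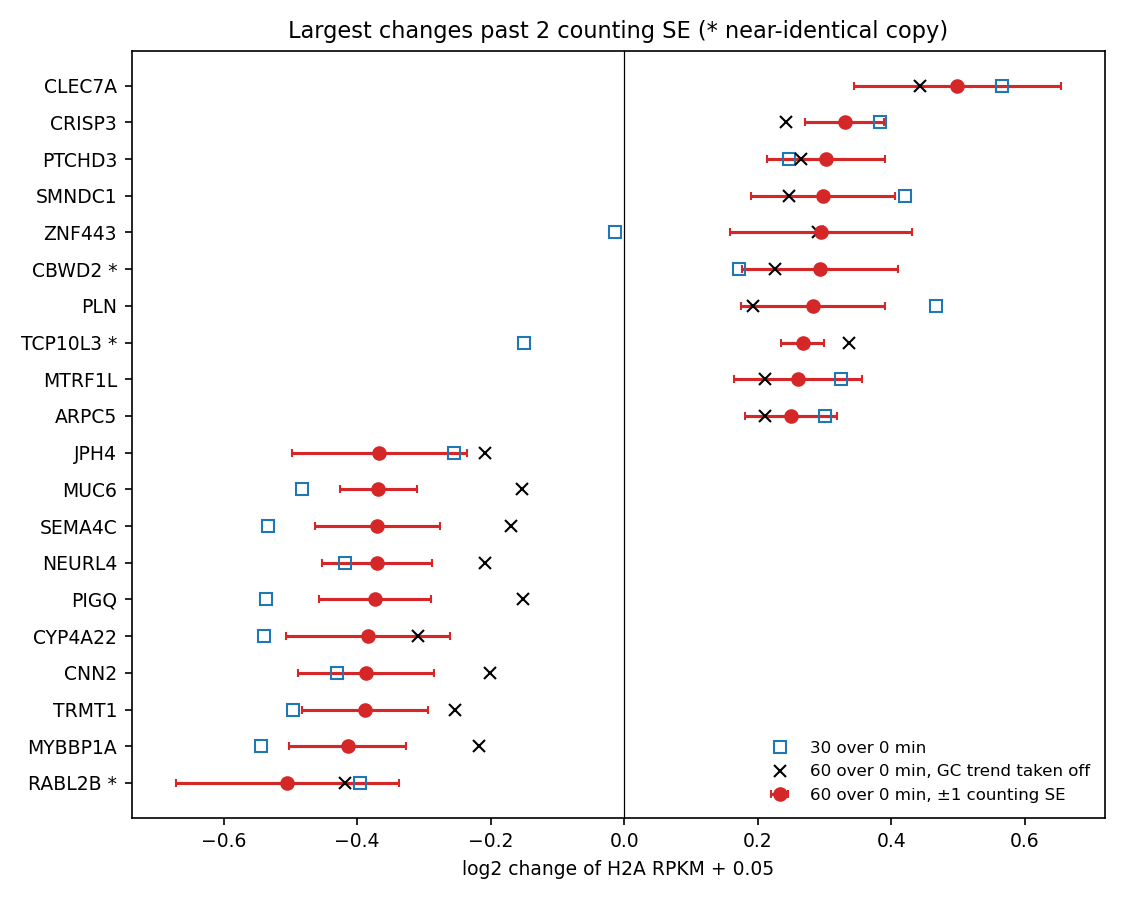
Log2 change of H2A RPKM (horizontal) for the 10 highest and 10 lowest genes past 2 counting standard errors (vertical). Red points are 60 over 0 min with bars of 1 counting standard error either way, blue squares 30 over 0 min, crosses 60 over 0 min with the GC trend taken off, and asterisks mark a near-identical copy. All 10 lower genes move towards 0 off the trend, and ZNF443 and TCP10L3 lie below 0 at 30 min.

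Near-identical copies were frequent at the high end. A copy was counted where the middle 5 kb of a gene matched another place over at least 80% of its length with at most 2% divergence. Of all 13318 genes, 145 had one, against 8 of the 16 genes past 0.25 and 13 of the 195 past -0.25. The genes among the 10 lowest and 10 highest that did not exceed 2 counting standard errors all had one, and they are named here after their values were seen. CBWD5 had 0.231 RPKM at 60 min, against 0.145 RPKM at 0 min, the highest change of all at 0.53 with a standard error of 0.31. The complement gene C4A had 0.115 RPKM at 60 min, against 0.200 RPKM at 0 min, the lowest at -0.60 with a standard error of 0.43. SPAG11A, FAM72B and FAM86B1 had 0.48, 0.41 and 0.41, and ANXA8L1 and GPAT2 had -0.40 and -0.38. Without genes that have a copy, 8 genes read higher past 0.25 and 182 lower.

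Other genes came to the ends with the GC trend taken off. HJURP, which deposits the centromeric histone CENP-A (chromosome 2, 234745489 to 234763212, 48.3% GC), had 2.94 RPKM at 60 min, against 3.78 RPKM at 0 min. Its change of -0.35 had a standard error of 0.07, and the value off the trend was -0.28. TBC1D28, of a family that regulates Rab GTPases, had 1.962 RPKM at 60 min, against 2.505 RPKM at 0 min, and lay at -0.29 off the trend, and close paralogs may share its reads. NOP2, an rRNA methyltransferase of the nucleolus (chromosome 12, 6666037 to 6677444, 48.9% GC), had 4.13 RPKM at 60 min, against 3.50 RPKM at 0 min. Its change of 0.24 had a standard error of 0.12, within 2 standard errors of 0, and it lay at 0.32 off the trend. CLEC2B, a lectin gene in the same cluster as CLEC7A, had 0.330 RPKM at 60 min, against 0.398 RPKM at 0 min. Its change of -0.24 had a standard error of 0.14, within 2 standard errors of 0, and it lay at -0.34 off the trend. At 30 min it read higher as deposited, by 0.25, and lay at -0.17 off the trend.

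No progestin response gene passed 0.25 either way, beside 0.12% higher and 1.46% lower over all genes. Of 32 progestin response genes that could be measured, 23 read lower and 9 higher, with a median of -0.03, beside 57.0% lower over all genes. Off the trend, 14 lay below it and 18 above. PER1, a clock gene induced by steroids, had 6.25 RPKM at 60 min, against 7.27 RPKM at 0 min, a change of -0.22 that became -0.04 off the trend. SLC7A5, an amino acid transporter, had -0.21, also -0.03 off the trend. F3, which encodes tissue factor, had 1.39 RPKM at 60 min, against 1.26 RPKM at 0 min, a change of 0.13 with a standard error of 0.09, within 2 standard errors of 0, and CCNA1, a cyclin gene, had 0.10. The listed genes left out as too short, X-linked or low numbered 13, among them MYC, DUSP1 and HSD11B2.

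Steroid receptors and their coregulators (20 genes) had a median of 0.01, with 9 lower and 10 higher, beside 57.0% lower over all genes. None passed 0.25, beside 0.12% higher and 1.46% lower over all genes. The coactivator gene CARM1, an arginine methyltransferase, had -0.18. PGR, the progesterone receptor gene, had 3.32 RPKM at 60 min, against 3.15 RPKM at 0 min, a change of 0.07 with a standard error of 0.03, and the corepressor gene NRIP1 had 0.08. The 21 genes of hormone-activated kinase signalling had a median of -0.04, with 13 lower and 8 higher. At the low end were MAP2K2, a kinase of the MAPK cascade, at -0.24 and AKT1 at -0.23, and AKT1 lay at 0.00 off the trend. Estrogen response genes (11 of 16 lower) had a median of -0.08, and 0.01 off the trend, with CTSD, the protease cathepsin D, at -0.21, RARA at -0.15, NRIP1 at 0.08 and MYB at 0.10.

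Genes of the poly-ADP-ribose and NAD pathway had a median of 0.02 over 34 measured genes, with 13 lower and 21 higher. Over all genes, 57.0% read lower. PARP10, a mono-ADP-ribosyltransferase gene, passed -0.25, as did 1.46% of all genes. It had 13.8 RPKM at 60 min, against 16.5 RPKM at 0 min, a change of -0.25 with a standard error of 0.04, and -0.12 off the trend. QPRT, of NAD synthesis from tryptophan, had -0.19. SIRT1, an NAD-dependent deacetylase gene, and PARP8 each had 0.10. NUDT5, which makes ATP from ADP-ribose, and PARG, which degrades poly-ADP-ribose, had 0.02 and 0.05, and are named after their values were seen.

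No gene for a remodelling complex on the lists passed 0.25, beside 0.12% higher and 1.46% lower over all genes. The NURF and ISWI list (10 genes, 2 lower) had a median of 0.03, with BAZ2A at -0.13 and BAZ2B at 0.09, both bromodomain subunits of ISWI complexes. The BAF list (24 genes, 16 lower) had -0.06, and 0.01 off the trend, with the neuronal subunit DPF1 at -0.20, the ATPase gene SMARCA4 at -0.17, SS18 at 0.12 and ACTL6A at 0.14. CHD, INO80 and SRCAP remodellers (16 of 24 lower) had -0.01, from CHD5 at -0.15 and SRCAP at -0.12 to ACTR6 at 0.11 and HELLS at 0.12. LSD1, CoREST and HP1 genes (11 of 19 lower) had -0.03, from GSE1, a partner of CoREST, at -0.19 and the methyltransferase gene EHMT2 at -0.17 to RCOR3 at 0.04 and ZMYM2 at 0.07. GSE1 had 17.9 RPKM at 60 min, against 20.4 RPKM at 0 min, with a standard error of 0.02, and lay at -0.01 off the trend.

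H2A chaperones, variants and modifiers (26 genes, 11 lower) had a median of 0.02. At the low end were PCGF3, a Polycomb subunit, at -0.19 and the macroH2A gene H2AFY2 at -0.11. The change of H2AFY2 had a standard error of 0.16, within 2 standard errors of 0. At the high end were RNF2, the ligase that ubiquitylates H2A, at 0.09 and PCGF5 at 0.11. The G1/S and replication genes (14 of 28 lower) had 0.00, from the helicase subunit MCM2 at -0.16 and TYMS at -0.13 to CDC25A at 0.08 and ORC5 at 0.11.

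No marker gene of a cell type passed 0.25 either way, again beside 0.12% higher and 1.46% lower over all genes. Leukocyte genes (9 of 12 lower) had a median of -0.05, with CD4 at -0.20, SPI1 at -0.19, CD3E at 0.03 and the phosphatase gene PTPRC at 0.11. Basal and mesenchymal genes (9 of 16 lower) had -0.03, with ITGB4 at -0.20, SPARC at -0.12, TP63 at 0.08 and ACTA2 at 0.11. Luminal breast genes (10 of 13 lower) had -0.02, with MLPH at -0.15, SPDEF at -0.11, PGR at 0.07 and TFAP2A at 0.09. Over all genes, 57.0% read lower. Off the trend, 5 of 12 leukocyte, 6 of 16 basal and mesenchymal and 8 of 13 luminal genes lay above it. The medians off the trend were 0.00, -0.01 and 0.02.

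The remaining gene families spanned a wide range of composition. Notch, Hedgehog and Wnt ligands and receptors (median GC 51.2%, 27 of 32 lower) had the lowest median at -0.09, and 0.00 with the GC trend taken off. The Notch ligand gene JAG2 had 2.18 RPKM at 60 min, against 2.71 RPKM at 0 min, a change of -0.31 that became -0.07 off the trend, and WNT10A had -0.29, while FZD6 and FZD3 had 0.06 and 0.11. Collagens (14 of 21 lower) had -0.08. COL2A1 of cartilage had -0.21 and COL6A1 -0.18, whereas the fibrillar genes COL3A1 and COL11A1 had 0.15 and 0.18. COL3A1, at 33.8% GC, and COL6A1, at 64.7%, both lay at 0.05 off the trend.

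Ionotropic glutamate and GABA receptors (16 of 30 lower) had a median of -0.01 and held 3 genes past -0.25, beside 1.46% of all genes. Off the trend, none of the 30 lay past 0.25 either way. GRIN2C, a subunit of NMDA receptors, had 3.00 RPKM at 60 min, against 3.81 RPKM at 0 min, a change of -0.34 with a standard error of 0.05, and -0.16 off the trend. GRIN1 had -0.27, and GABRD had -0.25 with a standard error of 0.41, while GRIA2 had 0.11. Cadherins (9 of 18 lower) had 0.00, from CDH15 and CDH4 at -0.17 each to CDH9 at 0.11 and CDH19 at 0.14. UDP-glucuronosyltransferases (4 of 17 lower) had 0.02, from UGT2B28 at -0.09 and UGT2B15 at -0.01 to UGT2B10 at 0.11 and UGT2B7 at 0.12, and several of these genes are close paralogs. Cytochrome P450 genes (24 of 39 lower) had -0.03, with CYP4F2 at -0.28, CYP26B1 at -0.24, CYP2U1 at 0.08 and CYP4V2 at 0.16. The C-type lectins of the natural killer region (9 of 17 lower) had -0.01, and -0.05 off the trend, with CLEC2B at -0.24, CLEC4D at -0.12, CLEC9A at 0.24 and CLEC7A at 0.50. CLEC7A was the one gene past 0.25 among 450 genes on the 21 lists, and 7 lay past -0.25, shares near the 0.12% and 1.46% of all genes.

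**Figure D3:**
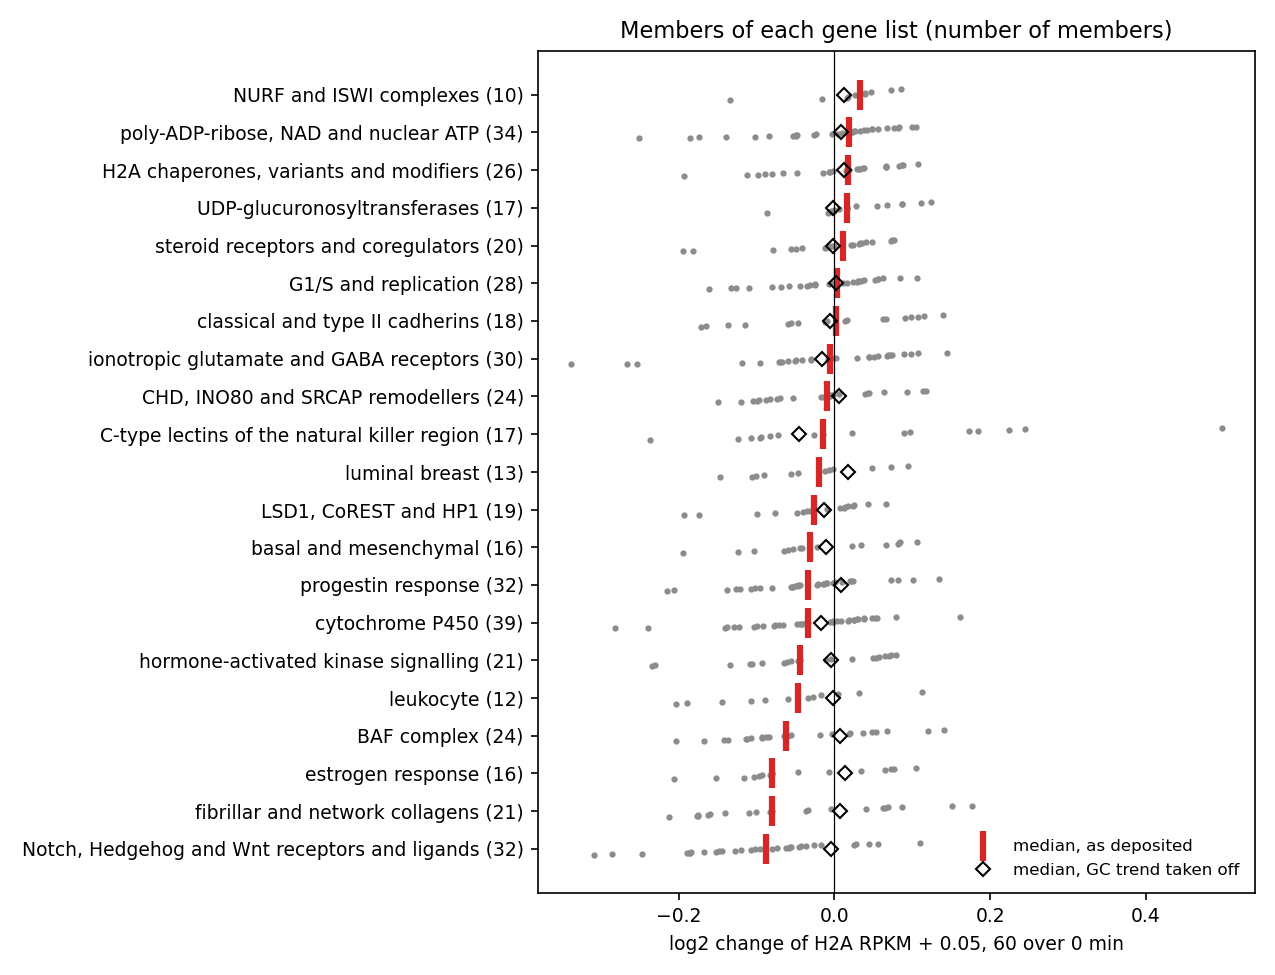
Log2 change of H2A RPKM at 60 over 0 min (horizontal) for the measured genes of 21 lists (vertical, number of genes in brackets). Grey points are genes, red bars list medians as deposited and diamonds list medians with the GC trend taken off. The medians run from -0.09 to 0.03 as deposited and from -0.05 to 0.02 off the trend.

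The chromosomes with the lowest medians were GC-rich and those with the highest were GC-poor. Chromosome 22 had the lowest median change at -0.10 (316 genes, median GC 50.7%), followed by chromosome 19 at -0.09 (912 genes, 51.2%) and chromosome 16 at -0.07 (545 genes, 48.1%). Chromosome 4 had the highest at 0.04 (595 genes, 38.8%), followed by chromosome 13 at 0.02 (261 genes, 39.8%) and chromosome 18 at 0.01 (242 genes, 40.9%). With the GC trend taken off, the medians of all 22 autosomes lay within 0.01 of 0, from chromosome 11 at the low end to chromosome 19 at the high end.

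**Figure D4:**
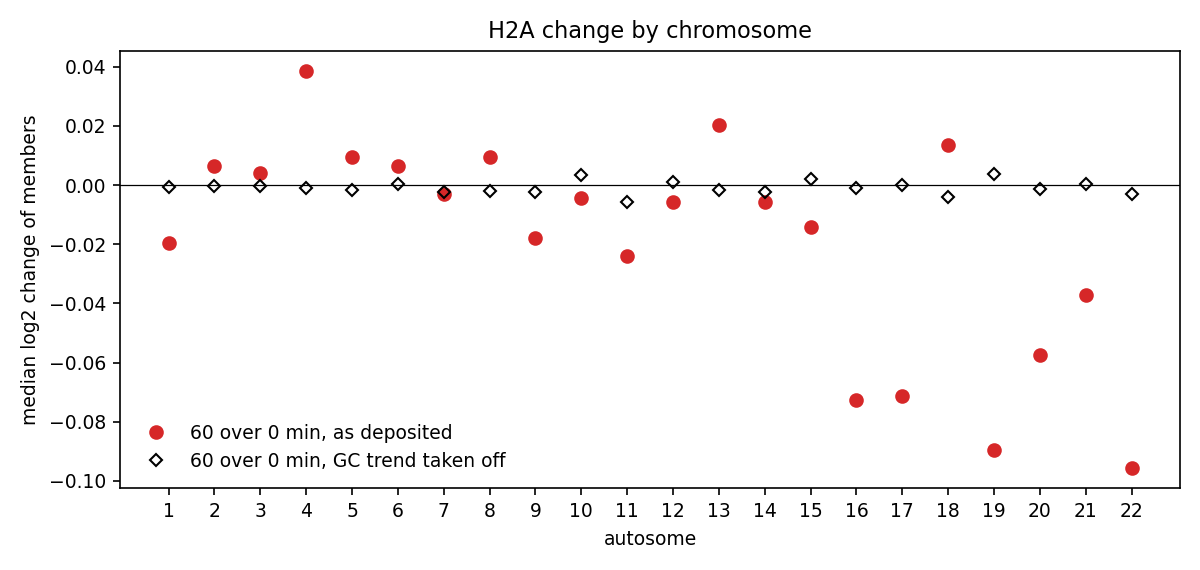
Median log2 change of H2A RPKM at 60 over 0 min (vertical) for the genes of each autosome (horizontal), as deposited in red circles and with the GC trend taken off in open diamonds. The circles run from -0.10 on chromosome 22 to 0.04 on chromosome 4, and the diamonds lie within 0.01 of 0.

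Neighbouring genes had like changes as deposited, and much less so off the trend. Over 11974 pairs of adjacent genes that do not overlap, the Spearman correlation of the 60 min change was 0.46 as deposited and 0.03 with the GC trend taken off. Among 475 windows of 5 Mb with at least 10 genes, the window medians off the trend ran from -0.08 to 0.03, with a 5th percentile of -0.02 and a 95th of 0.02. The lowest lay on chromosome 20 from 20000001 to 25000000. There 9 of 11 genes, placed by their midpoints, lay below the trend, beside 6747 of all 13318. The window was picked as the lowest of 475, so this share follows in part from that choice. The genes of this window are named after their values were seen. CST7, a cystatin gene of immune cells, had 0.579 RPKM at 60 min, against 0.751 RPKM at 0 min, and lay at -0.19 off the trend. NAA20, of an N-terminal acetyltransferase, lay at -0.20, the cystatin gene CST3 at -0.11 and PAX1 at -0.10. The next lowest windows were on chromosome 8 from 145000001 to 150000000 and on chromosome 5 from 5000001 to 10000000, both at -0.04. The highest, at 0.03 each, were on chromosome 4 from 175000001 to 180000000, chromosome 10 from 135000001 to 140000000 and chromosome 2 from 105000001 to 110000000. Windows follow a fixed grid of 5 Mb, so the last one of a chromosome can run past its end.

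Genes with and without peaks of other chromatin proteins had medians that differed as deposited and lay at 0.00 off the trend. Peaks were assigned over the gene body with 5 kb on either side. The 1750 genes with a BPTF peak displaced by hormone had a median change of 0.02, and the 11568 without one had -0.02, at median GC contents of 39.5% and 43.8%. The 940 genes with a recruited BPTF peak and the 12378 without had -0.01 and -0.02, at median lengths of 91.3 kb and 37.9 kb. Among genes of like length this order turned, with -0.06 and -0.04 at 10 to 50 kb, and -0.01 and 0.01 at 50 to 200 kb. The 4594 genes with an LSD1 peak before hormone had 0.01 and the 8724 without had -0.04, at 40.6% and 45.1% GC. For HP1γ before hormone, 5098 genes with a peak had 0.00 and 8220 without had -0.03, at median lengths of 65.04 kb and 30.78 kb. At 50 to 200 kb both had 0.01, slightly lower with a peak (0.0051) than without (0.0078). With the GC trend taken off, each group not split by length had a median of 0.00, as had those with and without a 30 min peak of LSD1 or HP1γ. At 10 to 50 kb, genes with a recruited BPTF peak had 0.01 off the trend and those without had 0.00.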

How the data were processed

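H2A was measured by chromatin immunoprecipitation with sequencing in 3 libraries, 1 per time, so no test was possible. The authors counted reads on both strands with HOMER 4.7.2 over GENCODE 18 genes on hg19 and deposited RPKM values, per the file headers. The deposited RPKM of a gene sums its transcripts, so levels are not compared between genes. Reads were aligned with Bowtie 1.0.0, per the submitters' processing notes. The LSD1 and HP1γ peak lists hold a deposited score per peak, whose definition is not given in the sources used here, and only peak positions were used. The BPTF lists hold positions only.

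The change is log2((RPKM at 60 min + 0.05)/(RPKM at 0 min + 0.05)), which understates the change of genes with low RPKM. Depth came from RPKM steps of genes under 300 bp, where 28 of 28 values at 0 and 60 min and 26 of 28 at 30 min were whole within 0.02 reads. Counting standard errors used transcript numbers from GENCODE 44, a later annotation than the authors', and cover counting error only. They are too large, and counts past 2 standard errors too low, where the later annotation has more transcripts. They were available for 13134 genes. Some list genes given without one, among them CCNA1, CLEC4D and UGT2B28, lay within 2 standard errors of 0. GC content came from the GRCh37 sequence, and its trend was a lowess with a span of 30% (statsmodels 0.14.6), tested on simulated data. Copies were sought with minimap2 2.31.

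Genes named are the 10 highest and 10 lowest past 2 counting standard errors, the 5 each way off the GC trend under the same condition, the 2 highest and 2 lowest of each list with every gene past 0.25, the 3 highest and lowest chromosomes and windows, and those beside the limits. Others are marked, and a few that the rule names, and 1 stretch of sequence, are not reported here. The genes studied, the lists and these rules were chosen with earlier results of these data known. Alternatives were 2 other pseudocounts, RPKM and length limits, centring, the GC trend, genes with 1 transcript, a stricter call and leaving out genes with a copy.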

Additional observations from a re-analysis of the deposited data

How the results depend on the processing

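The median change of -0.016 turned to 0.011 among genes of at least 50 kb, where 3 genes read higher and 2 lower past 0.25 and the Spearman correlation with GC was -0.843. With genes of at least 5 kb the values were -0.024, 33, 443 and -0.784. With only genes of 1 annotated transcript they were -0.022, 3, 8 and -0.744. A pseudocount of 0.5 gave -0.012, 2, 76 and -0.81, and one of 0.01 gave a correlation of -0.809. Dropping the RPKM limit gave -0.804, and a limit of 0.5 gave 6 higher genes and -0.818. Without genes that have a near-identical copy, an alternative chosen after seeing the data, there were 8 higher genes and the correlation was -0.813. Calling past 0.5 left 1 and 2. Centring set the median to 0 by construction. Taking the GC trend off gave a median of -0.00064 and a correlation of -0.0079, also by construction, and left 14 lower genes. The cause of the other shifts was not tested.

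Centring turned the sign of 3 of 21 list medians, 5 of 22 chromosome medians and 1 of 113 named genes. Taking the GC trend off turned 9, 13 and 8, and a pseudocount of 0.5 turned 0 of each. No paired analysis was possible because each time has 1 library. Without replicates the spread between cultures is unknown.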
